A study of Mus musculus with 25 samples.

Results

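The Hes, Hey and Id genes described here are 10 named genes, Hes1, Hes5, Hes6, Hey1, Hey2, Heyl, Id1, Id2, Id3 and Id4, taken by name from the 28446 genes of an RNA-seq table and the 28329 regions around gene starts of an ATAC-seq table of the developing mouse retina. All 10 were in each table and all passed the filter on low RNA values. Retinas of CD1 mice were sorted into GFP+ cells, which the labels call retinal progenitor cells, and GFP- cells, called post-mitotic. RNA-seq was made from both sorts at E14, E18 and P2, with 2 libraries in each of the 6 groups. ATAC-seq, which reads out accessible chromatin, was made from GFP+ cells alone, with 1 library at E10 and 2 at each of the later stages (E12.5 and E14, then E16.5 and E18, then P0 and P2). The labels give the strain and the sort but name neither the reporter that carries GFP nor whether replicates came from separate litters. The p-values therefore measure the spread between these libraries, which may be technical.

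Hes and Hey proteins are bHLH repressors with an orange domain. Activated Notch, bound to RBPJ, switches on Hes1, Hes5 and the Hey genes in retinal progenitors, and their proteins, with Groucho corepressors, hold down proneural genes such as Neurog2. Hes6 is the exception of the family, an antagonist of Hes1 that follows proneural factors and promotes neuronal differentiation. Id proteins carry the helix-loop-helix without the basic region, so they take up E proteins without binding DNA, and they are classical targets of BMP signalling. In the retina, Hes1, Hes5 and Hey2 are also known for their part in the formation of Mueller glia.

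RefSeq promoter sequences (build GRCm38.p6) were matched for 6 members, Hes5, Hes6, Hey2, Id2, Id3 and Id4. The letters GTGGGAA, the RBPJ site, were searched on both strands. They occurred in 6.38% of the 32851 promoters of 300 bases (250 before and 50 after the start), and 2 or more matches occurred in 0.256%. Among the 6 members, Hes5 and Hey2 each held 2 matches and the other 4 held none. The 250 bases before the start are shown for both, the 2 members with RBPJ letters among those with a sequence, and these matches are in capitals. Hes5 lies at chr4:154960673-154960922 on the plus strand and Hey2 at chr10:30842784-30843033 on the minus strand.
Hes5: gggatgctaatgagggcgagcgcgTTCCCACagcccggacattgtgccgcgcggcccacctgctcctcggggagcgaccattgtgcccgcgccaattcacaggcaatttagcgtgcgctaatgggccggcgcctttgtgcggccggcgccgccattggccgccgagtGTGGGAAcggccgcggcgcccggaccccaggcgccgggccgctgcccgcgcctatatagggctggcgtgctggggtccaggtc
Hey2: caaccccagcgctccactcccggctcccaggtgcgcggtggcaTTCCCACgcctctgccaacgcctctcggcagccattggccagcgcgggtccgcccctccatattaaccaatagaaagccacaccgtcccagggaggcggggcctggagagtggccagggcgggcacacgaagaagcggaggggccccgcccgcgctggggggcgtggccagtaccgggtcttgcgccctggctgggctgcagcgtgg
In Hes5 the matches begin 226 and 83 bases before the start. In Hey2 they begin 207 and 4 bases before it, and the second match runs into the transcribed part, so that it is not marked in the line above. The shorter letters TGGGAA occurred in 25.6% of promoters and, among members, in Hes5, Hey2 and Id4. GGCGCC, letters bound by BMP SMADs, occurred in 11.9% of promoters and in Hes5, Hey2, Id2 and Id4. The E box CANNTG occurred in 72.3% and in Hes5, Hes6, Hey2 and Id2. The N box CACNAG occurred in 42.5% and in Hes6, Id2 and Id4. CACGCG and CACGTG, letters bound by Hes and Hey proteins, occurred in 9.27% and 7.15% of promoters and in none of the 6. A match is a description of letters and not a measured site.

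Hes6 is shown because its 10 kb region had the largest log2 rise in accessibility of the 10 from E12.5 to P0. It has 2 RefSeq starts that lie 816 bases apart. The 250 bases before the downstream start, at chr1:91413223-91413472 on the minus strand, hold 1 E box, CANNTG, in capitals.
Hes6: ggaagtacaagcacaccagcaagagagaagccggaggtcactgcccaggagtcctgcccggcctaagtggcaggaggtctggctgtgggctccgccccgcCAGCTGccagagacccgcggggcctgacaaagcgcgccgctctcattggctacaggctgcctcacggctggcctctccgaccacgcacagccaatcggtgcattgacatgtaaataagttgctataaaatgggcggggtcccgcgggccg
The promoter of the upstream start holds 3 matches to the same letters.

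The RNA libraries at E14 stood apart. Replicates correlated at 0.980 to 0.993 (Pearson r of log2(FPKM + 1) over genes) in the 4 groups at E18 and P2, at 0.950 in E14 GFP+ and at 0.745 in E14 GFP-. The summed level of 10 lens markers was 127 FPKM in E14 GFP+ replicate 2 and 4764 FPKM in E14 GFP- replicate 2. In the other 10 libraries it was 0.7 to 4.0 FPKM. Mesenchyme and pigment epithelium markers summed to 171 and 195 FPKM in E14 GFP- replicate 2, and to at most 11.1 and 7.6 FPKM elsewhere. The summed level of 15 cycling-cell markers was 40.2 FPKM in E14 GFP- replicate 1 but 630 FPKM in replicate 2, above every GFP- library at E18 and 1 of the 2 at P2. Erythroid markers summed to 2491 FPKM in E14 GFP- replicate 1, and 10 ganglion cell markers to 6263 and 78.3 FPKM in the E14 GFP- replicates. Their part in the members' values was not tested, and results are given with and without the E14 libraries. Of the 12 progenitor markers, all were above 1 FPKM in every library, and their sum was 1913 to 3686 FPKM in GFP+ and 688 to 2425 FPKM in GFP- libraries.

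Hes1, the oscillating repressor that keeps progenitors dividing, was high in GFP+ cells and peaked at E18. Its level was 202 and 183 FPKM in E14 GFP+, 333 and 361 FPKM in E18 GFP+, and 103 and 166 FPKM in P2 GFP+ libraries. In GFP- cells it was 6.33 and 164 FPKM at E14, 82.3 and 97.6 FPKM at E18, and 78.0 and 36.8 FPKM at P2. The sorts did not overlap at any age, but the E14 GFP- replicates differed 26.0-fold, so that the higher of them lay near the GFP+ libraries. In bulk samples such as these, fewer cells of a type and less RNA per cell cannot be told apart.

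Hes5, the other main Notch effector, reached the highest level of the 10 genes. It was 276 and 39.4 FPKM in E14 GFP+, 475 and 604 FPKM in E18 GFP+, and 418 and 387 FPKM in P2 GFP+ libraries. GFP- cells held 6.22 and 26.7 FPKM at E14, 106 and 178 FPKM at E18, and 204 and 174 FPKM at P2. GFP+ was above GFP- at every age without overlap. Between E18 and P2 the GFP+ libraries were lower at P2 without overlap, whereas 1 of the 2 GFP- libraries at P2 was above both at E18.

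Hes6, the antagonist of Hes1, was in the range of Hes5. It was 322 and 79.1 FPKM in E14 GFP+, 412 and 483 FPKM in E18 GFP+, and 428 and 545 FPKM in P2 GFP+ libraries. In GFP- cells it was 45.5 and 43.9 FPKM, then 138 and 177 FPKM, then 264 and 219 FPKM at the same ages. The E18 and P2 GFP+ libraries overlapped, while in GFP- cells both P2 libraries lay above both E18 libraries. Ordered by group mean, Hes6 ran from 486 FPKM (P2 GFP+) and 448 FPKM (E18 GFP+), whose libraries overlap, over P2 GFP- and E14 GFP+ to E18 GFP- and last E14 GFP- at 44.7 FPKM. E14 GFP+, with its replicates 4.07-fold apart, overlapped both P2 GFP- and E18 GFP-.

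**Figure D1:**
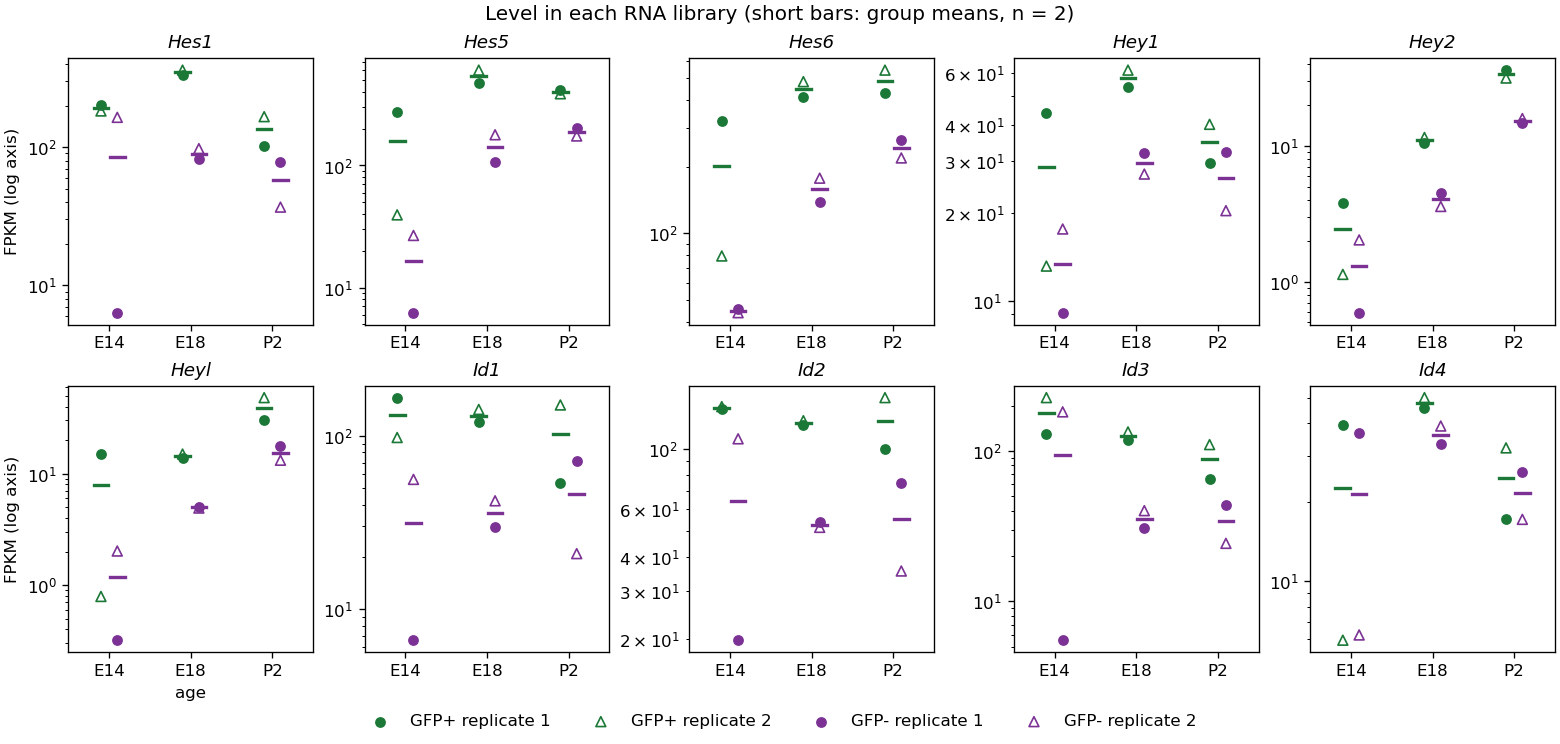
FPKM of the 10 genes in each of the 12 RNA libraries by age, on log axes, for GFP+ (green) and GFP- (purple) cells; symbols mark replicates 1 and 2 and short bars the group means (n = 2). At E18 both GFP+ points lie above both GFP- points in all 10 panels, and Hey2 and Heyl have their highest group means in P2 GFP+ (34.0 and 39.1 FPKM).

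In group means the Hey genes were lower than Hes1, Hes5 and Hes6, except that Hey1 and Hes5 were close in E14 GFP- cells (13.4 and 16.5 FPKM), and they followed different courses. Hey1, a Notch target with broad expression in progenitors, was 43.9 and 13.1 FPKM in E14 GFP+, 53.9 and 61.3 FPKM in E18 GFP+, and 29.6 and 40.0 FPKM in P2 GFP+ libraries. GFP- cells held 9.11 and 17.6 FPKM, 31.9 and 27.1 FPKM, and 32.2 and 20.3 FPKM. Its sorts were apart at E18 only, where its level was also highest.

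Hey2, tied to the glial fate in the late retina, was higher at each later age in GFP+ cells. It was 3.78 and 1.13 FPKM at E14, 10.6 and 11.6 FPKM at E18, and 36.2 and 31.7 FPKM at P2. In GFP- cells it was 0.59 and 2.03 FPKM, 4.53 and 3.58 FPKM, and 14.8 and 15.9 FPKM. The order of the groups was P2 GFP+, P2 GFP-, E18 GFP+, E18 GFP-, E14 GFP+ and E14 GFP-. Neighbours in that order did not overlap, with 2 exceptions, E18 GFP- with E14 GFP+ and E14 GFP+ with E14 GFP-.

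Heyl, also a Notch target, was 14.9 and 0.79 FPKM in E14 GFP+ replicates, 13.8 and 15.0 FPKM at E18, and 30.1 and 48.1 FPKM at P2. GFP- cells held 0.32 and 2.02 FPKM, 5.05 and 4.91 FPKM, and 17.7 and 13.2 FPKM. Both sorts were higher at P2 than at E18 without overlap. Hey genes are also known from endothelium. The defining endothelial markers Pecam1 and Cdh5 were at 0.02 to 0.50 FPKM in the 12 libraries, although the sum of the list of 12 ran from 10.2 to 260 FPKM. Kdr alone gave 7.16 to 233 FPKM of it. Among the others Egfl7 was at 1.52 to 14.2 FPKM and Cldn5 at 0.21 to 10.8 FPKM. Erg, Tek and Plvap were at 2.69, 1.69 and 1.43 FPKM in E14 GFP- replicate 2. Flt1 was at 2.24 and 1.06 FPKM in the P2 GFP+ libraries. The part of endothelial cells in the values of the Hey genes was not tested.

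Id1, Id2 and Id3 lay between 53.1 and 226 FPKM in GFP+ cells, and Id4 was lower. Id1, a classical BMP target, was 166 and 97.6 FPKM in E14 GFP+, 120 and 142 FPKM in E18 GFP+, and 53.1 and 150 FPKM in P2 GFP+ libraries. In GFP- cells it was 6.58 and 55.9 FPKM, 29.8 and 42.0 FPKM, and 71.2 and 20.8 FPKM. The sorts were apart at E14 and E18 and overlapped at P2, where the replicates of GFP+ differed 2.83-fold and those of GFP- 3.42-fold.

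Id2, which is broadly used in neural progenitors, had GFP+ group means of 141, 124 and 127 FPKM from E14 to P2. It was 140 and 143 FPKM in E14 GFP+, 122 and 127 FPKM in E18 GFP+, and 99.7 and 154 FPKM in P2 GFP+ libraries, with 19.9 and 109 FPKM, 53.9 and 51.5 FPKM, and 74.6 and 35.6 FPKM in GFP- cells. Its GFP+ libraries lay above its GFP- libraries at all 3 ages. Id3 was 129 and 226 FPKM, 119 and 134 FPKM, and 65.5 and 110 FPKM in GFP+ libraries from E14 to P2, and its group mean was lower at each age. In GFP- cells Id3 was 5.51 and 182 FPKM, 30.6 and 40.0 FPKM, and 43.6 and 24.3 FPKM, with E14 replicates 33.0-fold apart.

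Id4 did not follow the other Id genes. It was 39.6 and 5.95 FPKM in E14 GFP+ and 36.9 and 6.23 FPKM in E14 GFP- libraries, so that at E14 libraries of the same number were close and the sorts overlapped. At E18 the GFP+ cells had 45.8 and 50.2 FPKM, above the GFP- cells with 33.4 and 39.1 FPKM. At P2 the GFP+ cells had 17.2 and 32.3 FPKM and the GFP- cells 26.1 and 17.2 FPKM, with overlap.

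The comparison of the sorts asks which genes mark progenitors. At E18, all 10 members were higher in both GFP+ libraries than in both GFP- libraries, where 39.6% of the 14276 genes tested had this order. At P2 the count was 7 of 10 (34.5% of all genes), without Hey1, Id1 and Id4, and at E14 it was 5 of 10 (18.7%), namely Hes1, Hes5, Hes6, Id1 and Id2. No member was lower without overlap at E14, E18 or P2, where 15.9%, 39.4% and 32.4% of all genes were. The fitted differences on the log2(FPKM + 1) scale had a median over the members of 1.69 at E14, 1.43 at E18 and 1.14 at P2, beside medians near 0.00 over all genes.

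In the limma fit to all 12 libraries, no member passed an adjusted p of 0.05 between the sorts. At E18 161 genes (1.13%) were called higher and 355 (2.49%) lower, and at P2 16 genes (0.112%) were called higher and 196 (1.37%) lower. At E14 limma called 0 genes (0.00%), with 2246 at an unadjusted p under 0.05. Unadjusted, 4 members at E14 (Hes5, Hes6, Id1, Id2), 2 at E18 (Hes6, Hey2) and 1 at P2 (Hey2) were under 0.05, beside 15.7%, 29.7% and 15.7% of all genes.

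Members had smaller errors when E14 was left out. Without the 4 E14 libraries, limma called 9 of 10 members higher in GFP+ cells at E18, where 25.5% of the 13874 genes tested were called higher. Hes5 differed by 1.95 ± 0.23 (log2 difference ± SE, n = 2 in each group; adjusted p = 0.000214), against an SE of 0.86 and an adjusted p of 0.172 in the limma fit to 12 libraries. Hes1 differed by 1.94 ± 0.33 (adjusted p = 0.00141) and Hes6 by 1.5 ± 0.17 (adjusted p = 0.000206). Among the Hey genes the difference was 0.95 ± 0.22 for Hey1, 1.26 ± 0.15 for Hey2 and 1.36 ± 0.22 for Heyl. Among the Id genes it was 1.85 ± 0.58 for Id1, 1.22 ± 0.31 for Id2 and 1.82 ± 0.30 for Id3. Id4, at 0.40 ± 0.28, was the member not called (adjusted p = 0.261 by limma).

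At P2 the fit without the E14 libraries called 7 members higher, beside 16.2% of all genes. Heyl differed by 1.26 ± 0.22, Hey2 by 1.10 ± 0.15, Id3 by 1.36 ± 0.30, Hes1 by 1.27 ± 0.33, Id2 by 1.25 ± 0.31, Hes5 by 1.09 ± 0.23 and Hes6 by 1.0 ± 0.17. Hey1 (0.41 ± 0.22), Id1 (1.19 ± 0.58) and Id4 (0.15 ± 0.28) were not called, with adjusted p of 0.186, 0.146 and 0.717 by limma. No member was called for the interaction of sort and age in either limma fit (0.0981% and 3.03% of all genes called). Unadjusted, no member in the fit to 12 libraries and 1 member, Hes5 (-0.86 ± 0.32), in the fit without E14 was under 0.05 (3.24% and 16.9% of all genes).

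At E14 the count depended on the library left out. Without GFP- replicate 2, 6 members were called higher by limma (23.9% of 14109 genes), and without GFP+ replicate 2 there were 2, Hes5 and Hes6 (0.579%). Without GFP+ replicate 1 or GFP- replicate 1 limma called none (0.00% and 0.0141% of genes), nor did the fit of the 4 E14 libraries alone (0.00%), with 1, 1 and 0 members at an unadjusted p under 0.05. Without both libraries numbered 2 there were 9 (24.2% of 14027 genes). A group left with 1 library in these fits is assumed to vary like the other groups. Without both libraries numbered 2, Hes5 differed by 5.26 ± 0.32, Hes1 by 4.79 ± 0.46 and Id3 by 4.32 ± 0.42, while Id4 differed by 0.10 ± 0.39.

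**Figure D2:**
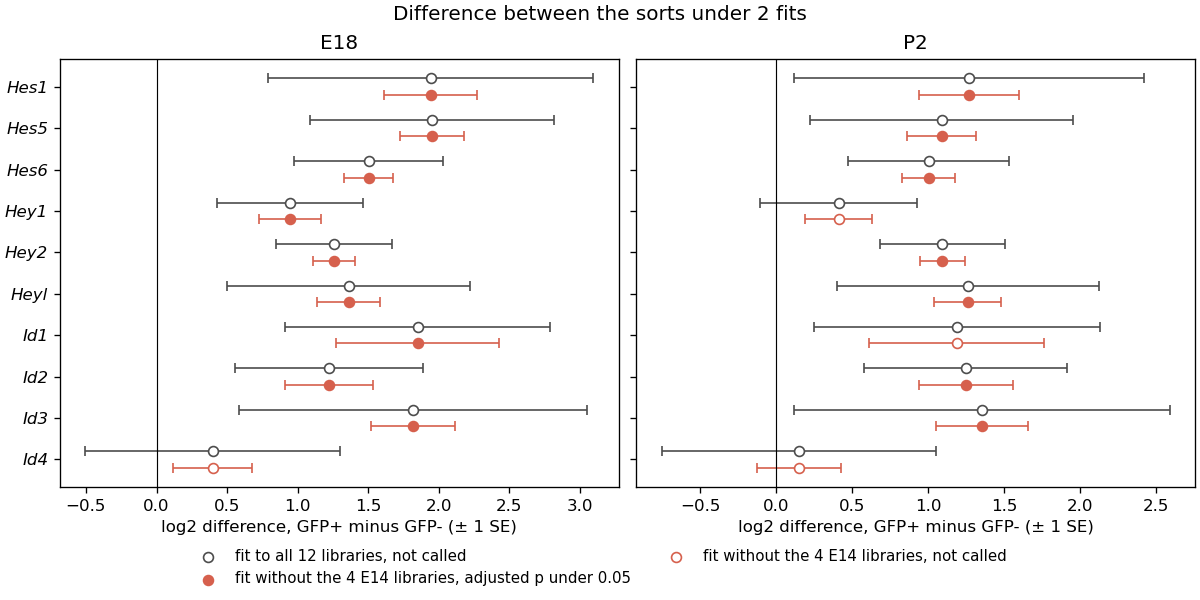
Log2 difference of GFP+ minus GFP- on the log2(FPKM + 1) scale at E18 (left) and P2 (right) with bars of 1 SE, from the limma fit to all 12 libraries (grey) and without the 4 E14 libraries (red); filled symbols mark an adjusted p under 0.05. The estimates are the same in both fits, and the SE of Hes5 falls from 0.86 to 0.23.

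Between ages, GFP+ cells at E18 had 6 members above E14 without overlap (Hes1, Hes5, Hes6, Hey1, Hey2 and Id4; 36.0% of all genes) and Id2 below (29.3%). From E18 to P2, Hey2 and Heyl lay above without overlap (34.5%), and Hes1, Hes5, Hey1, Id3 and Id4 below (40.1%). From E14 to P2, Hes5, Hes6, Hey2 and Heyl lay above (29.5%) and Hes1 and Id3 below (27.2%). From E18 to P2 in GFP- cells Hes6, Hey2 and Heyl lay above (33.8%) and Hes1 and Id4 below (36.9%). Members not named overlapped in that comparison.

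Hey2 was the member called in the fit to all 12 libraries. In GFP+ cells it rose from E14 to E18 by 1.91 ± 0.41 (adjusted p = 0.0251 by limma), the 1 member called higher where 4.36% of genes were, and none was called lower (4.06%). From E14 to P2 Hey2 rose by 3.45 ± 0.41 (adjusted p = 0.00978; 0.932% of genes called higher). In GFP- cells Hey2 rose from E18 to P2 by 1.70 ± 0.41 (adjusted p = 0.0344; 5.90% called higher). All 3 calls depended on single libraries. The call in GFP- cells was lost when any 1 of its 4 libraries was left out (adjusted p 0.112 to 0.186 by limma). That from E14 to E18 was lost without E14 GFP+ replicate 2 (0.128), E18 GFP+ replicate 1 (0.141) or E18 GFP+ replicate 2 (0.16). That from E14 to P2 was lost without P2 GFP+ replicate 1 (0.133) or replicate 2 (0.069) and in the fit of the 4 libraries alone (0.0761). With a pseudocount of 0.1, of the 3 calls the one from E14 to P2 was made. From E18 to P2 in GFP+ cells no member was called in this limma fit (7.98% of genes called, 4.47% higher and 3.51% lower), with Hey2 at 1.53 ± 0.41 (adjusted p = 0.0588) and no other member under an unadjusted p of 0.05 (22.6% of genes).

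Without the E14 libraries, 2 of 10 members were called higher and 3 lower from E18 to P2 in GFP+ cells. These counts are not far from the shares of all genes given next. Hey2 (1.53 ± 0.15) and Heyl (1.35 ± 0.22) rose, where 17.1% of genes were called higher. Hes1 (-1.40 ± 0.33), Id4 (-0.99 ± 0.28) and Hey1 (-0.72 ± 0.22) fell, where 18.3% were called lower. In GFP- cells Hey2 (1.70 ± 0.15), Heyl (1.44 ± 0.22) and Hes6 (0.61 ± 0.17) rose, where 20.6% of genes did, and no member was called lower (22.3% of genes). Without both E14 libraries numbered 2, Hey2 rose by 1.33 ± 0.19 and Hes5 by 0.95 ± 0.28 from E14 to E18 in GFP+ cells (10.3% of genes called higher), and from E14 to P2 Hey2 rose by 2.87 ± 0.19 and Heyl by 1.30 ± 0.27 (4.60%).

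Cycling-cell markers were read beside the members. Their sum was 1870 and 1951 FPKM in E18 GFP+ but 508 and 507 FPKM in E18 GFP- libraries. At P2 it was 1380 and 1771 FPKM in GFP+ replicates 1 and 2, and 668 and 401 FPKM in GFP- replicates 1 and 2. The replicates of 8 of the 10 members, all but Hes5 and Hey2, stood in the same order as this sum at P2 in both sorts. How many of all genes had this order was not counted. Over all genes the replicate differences of the 2 sorts at P2 correlated at -0.558, so the count is a description alone. All 15 markers were above 1 FPKM in every GFP- library at E18 and P2. The sum of 12 Mueller glia markers was 949 and 1168 FPKM in E14 GFP+, 1460 and 1582 FPKM in E18 GFP+, and 1611 and 2062 FPKM in P2 GFP+ libraries. In GFP- libraries it was 610 and 660 FPKM at E18 and 811 and 953 FPKM at P2. The part of either list in the members' values was not tested.

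The genes whose levels ran closest to each member over the 12 libraries were found among 10179 genes with a mean of at least 5 FPKM. As the genes share the 12 libraries and the E14 libraries that stood apart, r is a description. Hes1 ran with the S-phase genes Wdr76, Cdc6 and Mcm3 (Pearson r 0.995, 0.992 and 0.989), Id2 with Rad54l, Arhgap19 and Tyms (0.992, 0.991 and 0.988), and Id3 with Yap1, Cdca7l and Skp2 (0.990, 0.988 and 0.987). Hes5 ran with Btbd17, Crot and Cdkn2c (0.988, 0.983 and 0.983), and Hes6 with Olig2, Rnf144b and Cdh20 (0.984, 0.984 and 0.982). Hey1 had Adamts1, Hhip and Epha3 (0.969, 0.955 and 0.949), Hey2 had Tprn, Fxyd1 and Arhgef19 (0.990, 0.987 and 0.985), and Heyl had Scarb1, Gm9821 and Zbtb18 (0.975, 0.972 and 0.971). Id1 ran with Foxn4, 4930579G24Rik and Cyp26a1 (0.981, 0.977 and 0.973), and Id4 with Frmd4a, Nrcam and Rgs2 (0.978, 0.958 and 0.949). Within the set, Hes5 and Hes6 had the highest r (0.96) and Id3 and Id4 the lowest (-0.35).

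The genes upstream of the members were read in the same fits. Of 24 Notch pathway genes, 1 was called higher in GFP+ cells at E18 in the limma fit to 12 libraries, Dtx4, an intracellular modulator (1.19 ± 0.26, adjusted p = 0.0447). Without the E14 libraries 12 were called higher and 4 lower at E18, beside 25.5% and 25.6% of all genes, and 11 higher and 3 lower at P2, beside 16.2% and 17.7%. The median log2 difference of the list was 0.44 at E18 and 0.59 at P2, beside 0.00 and 0.01 over all genes. The feedback inhibitor Nrarp (1.80 ± 0.13), the receptor Notch1 (1.35 ± 0.12) and Sox9 (1.64 ± 0.15) were higher in GFP+ cells at E18. The ligand Jag2 was lower (-2.07 ± 0.18). Notch1 was 95.8 and 106 FPKM in E18 GFP+, 39.9 and 37.8 FPKM in E18 GFP-, 157 and 155 FPKM in P2 GFP+, and 66.5 and 80.6 FPKM in P2 GFP- libraries. In GFP+ cells from E18 to P2 the 12-library fit called Rbpj (0.92 ± 0.18, adjusted p = 0.0174 by limma) and the glycosyltransferase Rfng (1.27 ± 0.31) higher and Notch4 (-1.61 ± 0.37) lower.

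Of 23 BMP pathway genes, 20 were tested in the fit to 12 libraries and 1, the receptor Bmpr2, was called lower in GFP+ cells at E18 (-0.93 ± 0.19, adjusted p = 0.0412 by limma). Without E14, 15 were tested at E18, of which 4 were higher and 5 lower, near the shares of all genes in that fit (25.5% and 25.6%). The receptor Bmpr1b (1.53 ± 0.15) and the inhibitor Smad6 (1.41 ± 0.18), itself a BMP target, were higher in GFP+ cells, and Gdf11 was lower (-1.09 ± 0.12). The median of the list was -0.10 in that comparison. At P2 without E14, 3 of 15 tested were called higher and 1 lower, beside 16.2% and 17.7% of all genes. The median of the list was 0.04, beside 0.01 over all genes. Bmpr1a (0.53 ± 0.11), Bmpr1b (0.67 ± 0.15) and Smad5 (0.41 ± 0.11) were higher and the antagonist Chrd was lower (-1.04 ± 0.17). The fit to 12 libraries called none of the list at P2.

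Of 15 proneural and neuronal bHLH genes and their kin, 13 were tested. Without E14, 5 were higher and 5 lower in GFP+ cells at E18 (25.5% and 25.6% of all genes), with a list median of -0.02. Olig2 (1.55 ± 0.23), which acts in progenitors, was higher, and Nhlh2 (-2.85 ± 0.23) and Neurod2 (-1.25 ± 0.26), which act in neurons, were lower. In the same fit, from E18 to P2 in GFP+ cells, Neurog2 fell by 1.35 on the log2 scale (SE 0.19). Neurod1 (1.43 ± 0.21) and Neurod4 (1.99 ± 0.29) rose there, so genes of the list moved both ways. Of all genes 17.1% were called higher and 18.3% lower in that comparison. In the fit to 12 libraries Neurod2 was the gene of this list called between the sorts, lower at P2 (-1.92 ± 0.30, adjusted p = 0.0241 by limma). Of 14 E proteins and Groucho corepressors, 13 were tested. At E18, 4 were called higher and 1 lower without the E14 libraries, beside 25.5% and 25.6% of all genes. The fit to 12 libraries called none of them between the sorts at E18. Tcf3 (1.08 ± 0.12), Tcf4 (0.86 ± 0.18) and Tcf12 (0.52 ± 0.11), the E proteins that Id proteins bind, were higher in GFP+ cells at E18 without the E14 libraries, and Runx1t1 was lower (-3.58 ± 0.29). Of 6 further Hes, Hey and orange domain genes, 3 were tested, and Hes2 was called higher at E18 without E14 (1.57 ± 0.46).

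Accessibility at the starts was high for most members. The count in the central 2 kb, as CPM (counts over the library total, adjusted by TMM and put on a common scale), averaged 164 for Hey2 and 163 for Hey1, the 98.8th percentile of all starts, and 140 for Hes6. Heyl, at 24.0 CPM, was at the 52nd percentile. Region totals ran from 11176227 to 94662422 counts per library. The E10 library and P2 replicate 2 stood apart in start enrichment, the ratio of counts at the middle of a region to those at its edges, which was 6.40 and 12.2 in them and 18.5 to 28.6 in the other 11 libraries. Among those 11 it was lowest at E12.5 (19.9 and 18.5) and highest at P0 (27.8 and 28.6). It thus moved with the gains from E12.5 to P0 given next, and its part in them was not tested.

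From E12.5 to P0, 7 of 10 members gained accessibility at the start in the quasi-likelihood test of edgeR, where 26.8% of the 27685 starts did, and 1 lost it, where 24.7% did. Hes1 was 63.8 and 60.0 CPM at E12.5 and 109 and 101 CPM at P0 (log2 difference 0.77 ± 0.16, adjusted p = 2.21e-05). Hes5 was 74.2 and 63.6 CPM against 133 and 130 CPM (0.93 ± 0.16, adjusted p = 2.58e-07). Hes6 was 92.8 and 84.9 CPM against 173 and 186 CPM (1.01 ± 0.17, adjusted p = 8.85e-08). In these 3 genes both P0 libraries lay above both E12.5 libraries. Heyl rose from 13.7 and 11.3 CPM to 36.2 and 34.8 CPM (1.51 ± 0.15, adjusted p = 4.69e-21). Id1 rose by 0.82 ± 0.16, Id2 by 0.63 ± 0.16 and Id4 by 0.42 ± 0.16. Id3 moved the other way, from 83.0 and 90.4 CPM to 59.5 and 57.4 CPM (-0.57 ± 0.16, adjusted p = 0.00142 by edgeR). Hey1 (0.20 ± 0.17) and Hey2 (0.26 ± 0.17) were not called, and both were above 150 CPM in every library at E12.5. Both were called higher when E10 and P2 replicate 1 were left out (adjusted p = 0.0115 and 0.0006 by edgeR). That fit called 9538 of 27588 starts higher and 9008 lower, and it kept P2 replicate 2, whose start enrichment was low. The call of Id4 was lost when any 1 of the 4 libraries was left out (adjusted p 0.0595 to 0.182), and the other calls at the starts were made without any 1 of them.

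**Figure D3:**
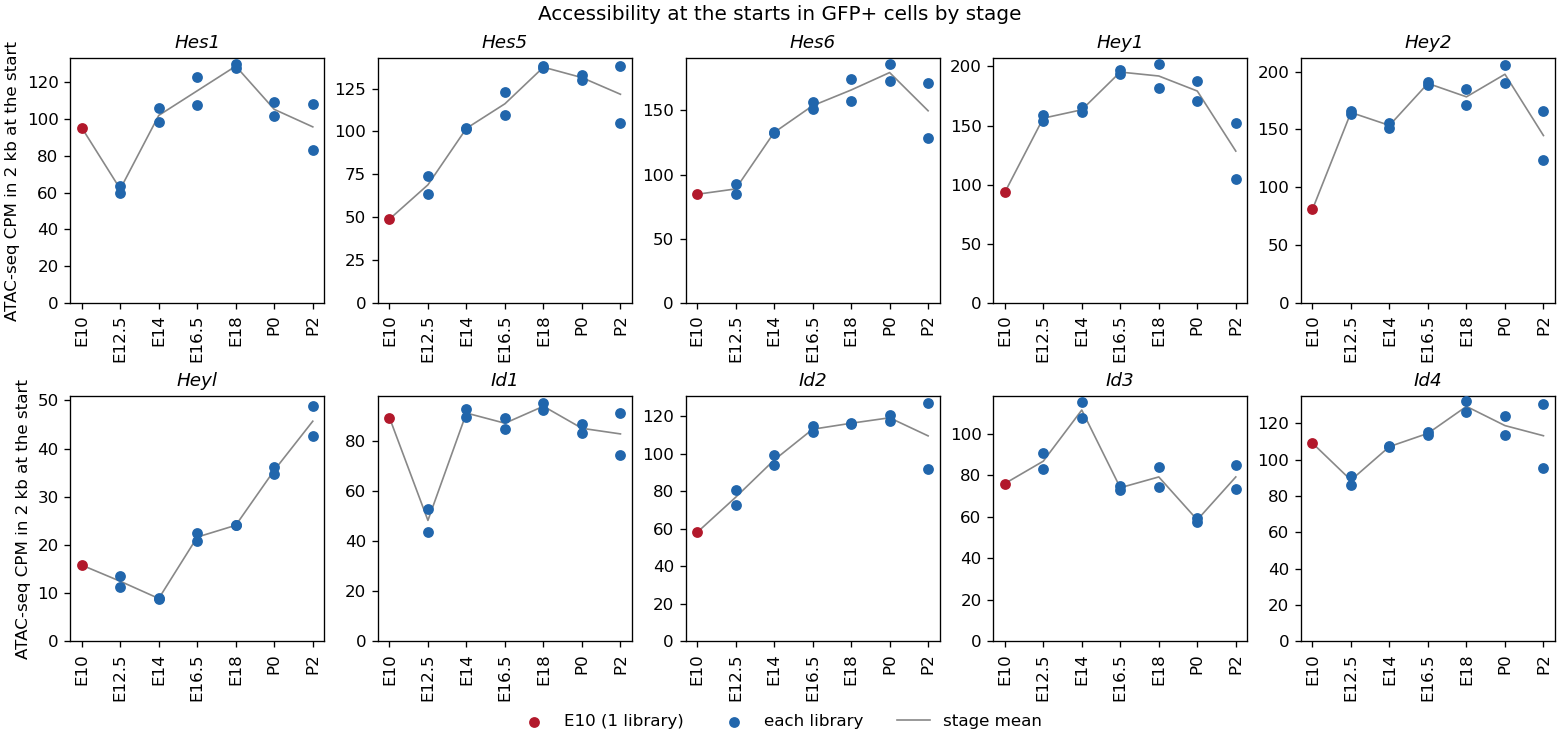
ATAC-seq CPM in the central 2 kb at the start of each gene in GFP+ cells, by stage; points are libraries, the grey line joins stage means, and the 1 library at E10 is red. Heyl runs from about 9 CPM at E14 to 42.5 and 48.8 CPM at P2, and at P2 replicate 2 is the lower point in all 10 panels.

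The course over all stages was less even. With library totals in place of TMM, the same 7 members were called higher and Id3 lower from E12.5 to P0, but over all starts the split turned from 7424 higher and 6826 lower to 5224 higher and 8549 lower. Fitted as a trend over stage rank 1 to 7, 4 members rose by edgeR (6.25% of starts did): Heyl by 0.36 ± 0.05 log2 per stage, Hes5 by 0.20 ± 0.04, Hes6 by 0.16 ± 0.04 and Id2 by 0.13 ± 0.04. Without E10 and P2 replicate 1 the 1 member called was Heyl (3.33%), and without either E12.5 library Heyl and Hes5 were called (3.38% and 3.08%). Without E10 and P2 replicate 2, the 2 libraries of low enrichment, an alternative chosen after seeing the data, 7 rose (17.2%), with Hes1 (0.14 ± 0.04), Id1 (0.13 ± 0.05) and Id4 (0.10 ± 0.03) added, and Id3 fell (-0.10 ± 0.04; 17.4% of starts fell). From E14 to P2, Heyl rose by 2.36 ± 0.14 (adjusted p = 7.89e-55; 11.9% of starts rose) and Id3 fell (-0.49 ± 0.15, adjusted p = 0.00831 by edgeR; 15.7% fell). The call of Id3 was lost without E14 replicate 1 (adjusted p = 0.0539 by edgeR) or replicate 2 (0.132). The other 8 were not called. Heyl was 8.74 and 9.05 CPM at E14, the lowest of its stages, and 48.8 and 42.5 CPM at P2. The P2 libraries differed on the rest, all 10 members being lower in replicate 2. With replicate 2 alone edgeR called 1 member higher and 5 lower (30.2% and 35.9% of starts), and with replicate 1 alone 5 higher and 1 lower (10.8% and 13.9%).

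Counts over other features were tested too. Over the whole 10 kb, the 7 members that rose at the start (Hes1, Hes5, Hes6, Heyl, Id1, Id2 and Id4) rose from E12.5 to P0 (29.9% of 27902 regions) and none fell (32.0%), by edgeR, with Id3 at -0.39 ± 0.19 (adjusted p = 0.0622) and 1 lower by DESeq2. The region of Hes6 rose most among the members, by 1.28 ± 0.19. Without any 1 of the 4 libraries, Hes1, Hes5, Hes6, Heyl and Id1 were called over 10 kb each time. Of exon counts, the same 7 rose (23.0% of genes) and Id3 fell (-0.41 ± 0.16, adjusted p = 0.0408; 19.0%), a call lost when any 1 of the 4 libraries was left out (adjusted p 0.0997 to 0.171 by edgeR). From E14 to P2, Heyl rose by 2.21 ± 0.13 over the region (14.7% of regions rose) and by 1.70 ± 0.15 over exons (11.1% of genes rose). Id3 fell in both (-0.55 ± 0.19, where 16.5% of regions fell, and -0.60 ± 0.14, where 15.0% of genes fell), but over the region not without either E14 library (adjusted p 0.0877 and 0.172 by edgeR). Id1 fell over exons (-0.43 ± 0.15, adjusted p = 0.0347), a call lost with library totals (0.0814), without E14 replicate 1 (0.107) or replicate 2 (0.185), and without P2 replicate 2 (0.077).

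Windows of 200 bp, on mm9, placed the differences between E12.5 and P0 around each start. Of the members' 500 windows 433 were tested, of which 62 were called higher and 18 lower, beside 4.0% and 4.92% of the 653456 windows tested by edgeR. The share over all windows depended on the filter. With a minimum count of 50, 33738 of all 208480 windows were called higher and 32324 lower. Of the members' 290 windows 81 and 27 were. With any 1 of the 4 libraries left out, 27 to 49 of the members' windows were called. Of the windows named below as called, those of Hes6 at -1100 bp, Hes5 at -2500 bp, Heyl at 100 bp and Hey2 and Id2 at -4900 bp were called each time. The others lost the call without 1 or more libraries, apart from 2 named after their values were seen, which were not refitted. The median log2 difference of all windows was -0.29. Positions are distances of the window's centre from the start, negative upstream. Window CPM are counts over the library's total of all regions, without TMM, unlike the CPM at the starts. The log2 differences beside them come from the fit with TMM, so they can differ in size, and at -100 bp of Id3 in sign.

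Hes6 had 12 windows called higher, 11 of them in an unbroken run from -2300 to -300 bp upstream. The largest rise lay at -1100 bp (chr1:93310799-93310998), from 5.30 and 4.67 CPM at E12.5 to 20.4 and 22.6 CPM at P0 (2.30 ± 0.36, adjusted p = 3.53e-08). Stage means there ran 4.99, 10.0, 13.9, 16.1 and 21.5 CPM from E12.5 to P0. At the start used for the region, at -100 bp, the window rose less, from 19.7 to 34.6 CPM. It was not called (adjusted p = 0.077 by edgeR), although it was with library totals (0.00114) and with a minimum count of 50 (0.00311). The RefSeq starts of Hes6 lie 816 bases apart and were not placed on mm9. Windows counted here as upstream may therefore lie at the other start. The gene Per2 also lies within the 10 kb of Hes6.

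Hes5 had 10 windows called higher, in 3 groups. The largest rise was 2.5 kb upstream, at -2500 bp (chr4:154332432-154332631), from 6.33 and 6.47 CPM to 17.3 and 16.7 CPM (1.61 ± 0.35, adjusted p = 0.000275). The windows from -300 to 100 bp, around the start, rose as well, with the highest mean at -100 bp, where counts went from 13.7 and 11.8 CPM to 27.7 and 24.1 CPM (1.23 ± 0.37, adjusted p = 0.0177). The last group lay at 3300 to 4500 bp, beyond the end of Hes5, and Pank4 lies within the same 10 kb. At E10 the -2500 bp window held 1.81 CPM.

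Hes1 had 13 windows called higher, from -2100 bp to 4300 bp. Its highest window was at -100 bp (chr16:30065243-30065442), at 12.7 and 11.7 CPM at E12.5 and 22.1 and 20.5 CPM at P0, which was not called (adjusted p = 0.0607 by edgeR). It was called with library totals (0.00113), a minimum count of 50 (0.00282) and the replicate block (0.0433). The largest rise was in an exon at 1700 bp, from 2.97 and 3.38 CPM to 7.11 and 6.62 CPM (1.32 ± 0.32, adjusted p = 0.00159). A second peak at -1100 bp rose from 12.3 to 22.1 CPM (adjusted p = 0.0456 by edgeR), a window named after its values were seen.

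Heyl had 8 windows called higher, 7 of them in a run from -900 to 300 bp. Its highest window, in the exon at 100 bp (chr4:122910799-122910998), went from 2.71 and 1.73 CPM to 9.99 and 6.35 CPM (2.1 ± 0.31, adjusted p = 7.5e-09). The largest log2 value, 2.23 ± 0.77 in the intron at 900 bp, rests on 0.0897 CPM at E12.5 and 0.446 CPM at P0 (adjusted p = 0.0451 by edgeR). The P0 libraries differed there as well, at 0.265 and 0.626 CPM.

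Hey2 had a higher count at its start than Heyl at both stages. The window at -100 bp (chr10:30562589-30562788) was at 35.3 and 39.4 CPM at E12.5 and at 40.6 and 45.0 CPM at P0 (0.39 ± 0.40, adjusted p = 0.583 by edgeR). Called windows lay farther off, at -2900 and -2700 bp and at the edge of the region from -4900 to -4500 bp. The window at -4900 bp rose from 1.06 and 1.03 CPM to 3.45 and 4.65 CPM (2.12 ± 0.32, adjusted p = 8.04e-09). RNA of Hey2 rose from E14 to P2 while its start, at 156 and 151 CPM at E14 and 166 and 124 CPM at P2, was not called. The start of Heyl rose from E14 to P2. Its RNA was not called in the limma fit to 12 libraries (2.87 ± 0.86, adjusted p = 0.172). It was called higher by limma with array weights (adjusted p = 0.0238). It was also called without E14 GFP+ replicate 1 and without both E14 libraries numbered 2, fits that leave 1 library in E14 GFP+. The E14 GFP+ replicates held 14.9 and 0.79 FPKM of Heyl. The other alternatives for GFP+ P2 against E14 did not call its RNA. RNA was not measured at E12.5 and P0, so that the stages of both assays are shared at E14, E18 and P2 alone.

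Id3 had 17 windows called lower and none higher. The windows at -100 and 100 bp were not among them. The highest window, at -100 bp (chr4:135699537-135699736), held 14.4 and 17.3 CPM at E12.5 and 14.7 and 14.4 CPM at P0 (0.08 ± 0.36, adjusted p = 0.916 by edgeR). The window at -500 bp, named after its values were seen, fell from 5.05 to 1.53 CPM (-1.49, adjusted p = 0.000435). The largest log2 fall, at -2100 bp, was from 0.485 and 0.589 CPM to 0.0884 and 0 CPM and rests on few counts.

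Id1 had 7 windows called higher, the largest at 100 bp in its exon, from 6.36 and 4.71 CPM to 12.3 and 12.9 CPM (1.38 ± 0.34, adjusted p = 0.00185). The window at -100 bp, with the highest mean, rose from 9.52 and 7.54 CPM to 16.7 and 16.8 CPM (1.17 ± 0.35, adjusted p = 0.0172 by edgeR). Its 1 window called lower, at -3700 bp, held 0.314 and 0.184 CPM at E12.5 and 0 CPM in both P0 libraries. Id2 had 6 called higher. The largest was at the upstream edge of the region, -4900 bp (chr12:25785757-25785956), from 1.88 and 1.80 CPM to 6.41 and 8.32 CPM (2.18 ± 0.32, adjusted p = 1.9e-09). At -100 bp Id2 held 19.8 and 18.1 CPM and then 33.8 and 32.7 CPM (adjusted p = 0.0685 by edgeR), which was called with library totals (0.000882), a minimum count of 50 (0.0027) and the replicate block (0.0482). Id4 had 1 window called higher, in its intron at 700 bp, from 2.65 and 3.13 CPM to 4.42 and 5.55 CPM (0.97 ± 0.30, adjusted p = 0.0224). Hey1 had none called in either direction, and its highest window, at -100 bp, held 23.4 and 26.5 CPM at E12.5 and 28.0 and 28.2 CPM at P0.

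**Figure D4:**
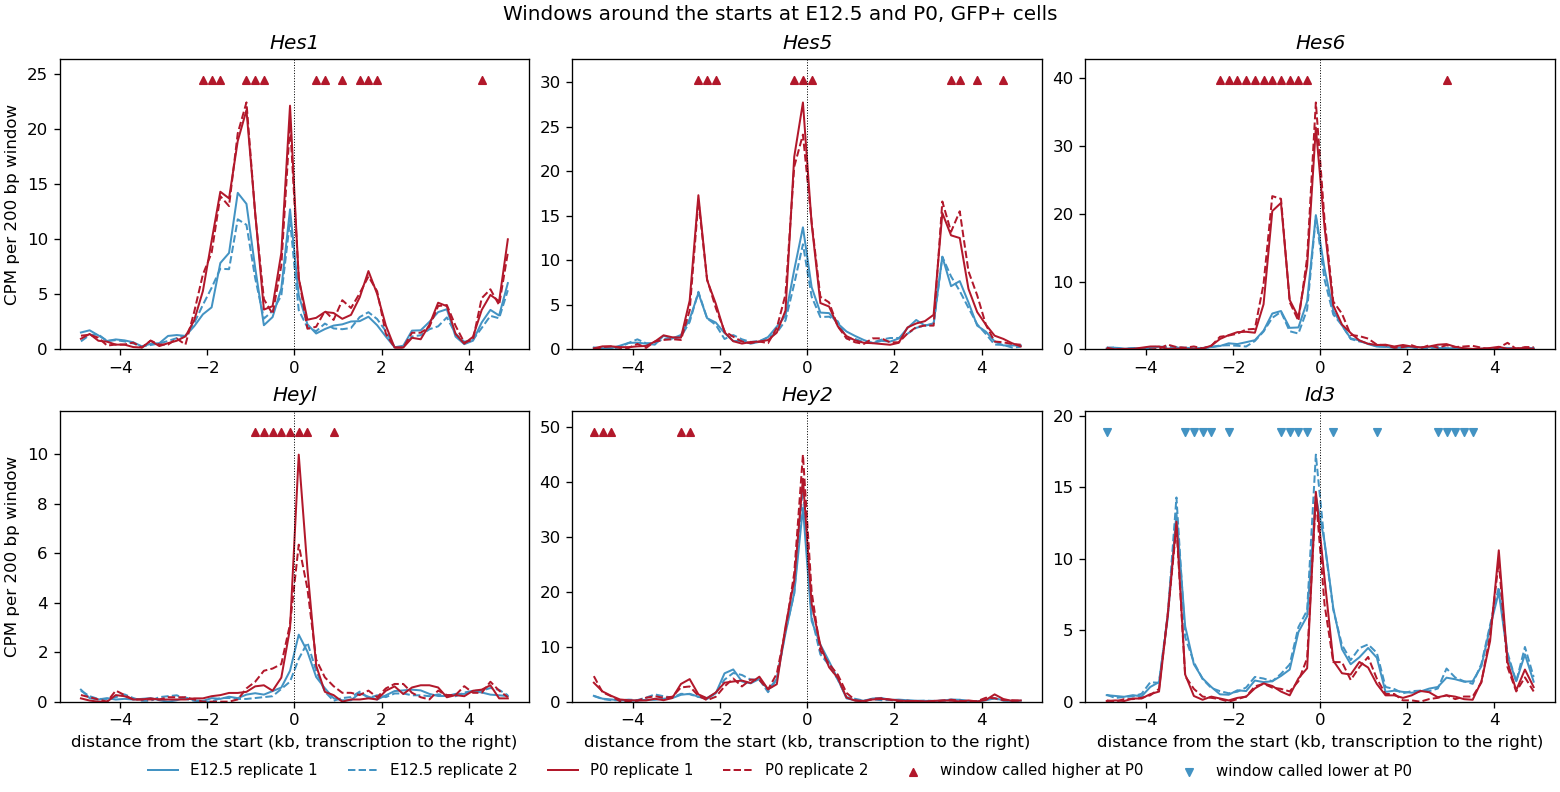
CPM in 200 bp windows over 10 kb around the starts of 6 members at E12.5 (blue) and P0 (red), 2 libraries each (solid and dashed), by distance from the start in kb; triangles mark windows called higher (red, up) or lower (blue, down) at P0. Hes6 gains a peak at -1100 bp (about 5 to 21.5 CPM), the window of Hey2 at -100 bp is not marked (35.3 and 39.4 CPM at E12.5, 40.6 and 45.0 CPM at P0), and no fall at Id3 is marked at -100 or 100 bp.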

How the data were processed

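Poly(A) RNA-seq of 12 libraries (the labels also name a total RNA kit) and ATAC-seq of 13 libraries were used as deposited. The RNA table holds FPKM values per gene as the authors deposited them; the unit fits the values and no header states it, and reads could not be recovered, so the depth of RNA is unknown. The deposited ATAC tables hold raw counts over exons and in windows of 200 bp around gene starts (mm9), with exon totals of 1474790 to 15915391 per library. Bowtie2, HISAT2, Picard 2.10.7, SAMtools 1.5, bedtools 2.26.0 and featureCounts 1.5.3 and the builds mm9 and mm10 are named without roles, per the submitters' processing notes. How Tn5 cut sites were shifted is not given in the sources used here.

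Genes that reached 1 FPKM in 2 or more libraries were fitted on log2(FPKM + 1) with limma 3.58.1 in R 4.3.3, with an intensity trend and the 6 groups. Fold changes on that scale understate changes of low genes. Counts were tested with the quasi-likelihood test of edgeR 4.0.16 after TMM scaling and its filter on low counts (a minimum count of 20 for windows), with DESeq2 1.42.0 as an alternative. 7998 windows outside complete regions were left out. Benjamini-Hochberg adjustment ran over all features of a comparison, and an adjusted p under 0.05 was called. Scripts were tested on simulated data. RefSeq promoters (GRCm38.p6) were used for sequences alone.

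The members, gene lists and tests were chosen with earlier results of these data known. All 10 members were tested in each comparison, and those called are named. Of each list at most 4 called genes with the smallest p are named (1 gene is not reported here), and of each member the called windows with the largest rise and fall and the window with the highest mean. The 3 genes with the highest r are named for each member.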

Additional observations from a re-analysis of the deposited data

How the results depend on the processing

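The number of members called was recomputed under each alternative. With array weights it was 9 between the sorts at E18 (4090 of 14276 genes higher and 4164 lower). At P2 it was 5 (1703 and 2181 genes). It was 3 for GFP+ E18 against E14 (1417 and 1361) and 5 for GFP+ P2 against E18 (2964 and 3238). For GFP+ P2 against E14 it was 3 (596 and 446), and for GFP- P2 against E18 it was 2 (2451 and 2581). Fits of only the 4 libraries compared called 10 members for the sorts at E18 (3968 of 13403 genes higher and 3982 lower). They called 5 for the sorts at P2 (1462 of 12844 genes higher and 1767 lower). For GFP+ P2 against E18 they called 5 (2710 of 12648 higher and 2715 lower). For GFP+ P2 against E14 they called 0 (0 of 12400 genes). For GFP- P2 against E18 they called 4 (2146 of 13445 higher and 2419 lower). Without the 4 E14 libraries the counts were 9 and 7 between the sorts and 5 and 3 between E18 and P2 in GFP+ and GFP- cells. Without both E14 libraries numbered 2 they were 9 for the sorts at E14, and 2 for both GFP+ comparisons with E14. A pseudocount of 0.1 left 0 members in GFP+ E18 against E14 and in GFP- P2 against E18. Leaving out 1 library gave 0 to 6 for the sorts at E14, 0 to 5 for GFP+ E18 against E14, 0 to 3 for GFP+ P2 against E14 and 0 to 0 for GFP- P2 against E18. Over all genes the calls ran from 0 to 6967 for the sorts at E14, 9 to 8254 at E18, 29 to 5144 at P2 and 1 to 421 for the interaction. The cause was not tested.

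With the replicate number as a replicate block, 0 members were called in GFP- P2 against E18, and the other member counts in RNA were as without it. The labels do not say that a number pairs libraries. Differences between replicates correlated over genes at 0.362 at E14, 0.111 at E18 and -0.558 at P2. With the P2 numbers crossed, chosen after seeing the data, the block called 0 members between the sorts at P2, or 8 without the E14 libraries. In ATAC-seq the block called 86 of the members' windows against 80.

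For ATAC-seq, P2 against E14 gave 6 members at the central 2 kb with library totals, and over 10 kb 5 with totals and 4 with DESeq2. The trend gave 4 (totals) and 5 (DESeq2) over exons and 7 (DESeq2) over 10 kb. Leaving out libraries gave, for P2 against E14, 2 to 8 members over exons, 1 to 8 over 10 kb and 1 to 6 at the central 2 kb. For P0 against E12.5 it gave 5 to 9 over exons. For the trend it gave 1 to 7, 2 to 8 and 1 to 8, and for windows 27 to 49. The trend without E10 and P2 replicate 2 was chosen after seeing the data. For P2 against E14 and P0 against E12.5, a fit without 1 of the libraries compared leaves 1 at that stage. The number called over all features also moved in these fits, so the ranges are no result about the members. Calls over all starts ran from 8577 to 18546 for P0 against E12.5 and from 1758 to 15965 for the trend, and over all windows from 15601 to 84436. For P2 against E14 totals turned the split of all starts from 3301 higher and 4355 lower to 5226 and 3146. Totals moved the median of all starts to 0.24 in that comparison and to -0.28 for P0 against E12.5.

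Signs turned in a few values that were not called. Hey1 at the start was -0.02 for P0 against E12.5 with totals, and the -100 bp window of Id3 was -0.12 with totals and -0.15 with a minimum count of 50. With 1 library left out that window ran from -0.026 to 0.21. Between the sorts at E14, Hey2 then ran from -0.039 to 1.13, Heyl from -0.15 to 2.99, Id3 from -0.091 to 4.72 and Id4 from -1.25 to 1.29, and at P2 Id4 ran from -0.28 to 0.58. With 2 libraries in a group, precision is limited by their number, and in RNA depth is unknown.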
